A study of Mus musculus with 2 samples.

Results

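Out-of-frame TCRβ junctions are rearranged TCRβ genes whose V and J segments were joined in different reading frames, so that they cannot encode a receptor chain. They were taken from the clonotype tables of 2 libraries as the clonotypes whose first-listed J gene was a TRBJ gene and whose translated CDR3, the stretch that spans the V-D-J joins, carried the mark of a frame shift. There were 425 such clonotypes among 1640 TCRβ clonotypes of the thymus and 513 among 2241 of the spleen, or 863 different CDR3 nucleotide sequences over both tissues. They were compared with the 1193 and 1706 in-frame clonotypes without a stop codon, while 22 in-frame clonotypes with a stop codon in each library stood apart.

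Both libraries held iT cells of the C57BL/6 strain, which are T cells grown from pluripotent stem cells that carry a doxycycline-inducible Runx1-p2a-Hoxa9 cassette, and which had matured in B-NDG mice, an immunodeficient host without T cells of its own. Each library was made from 15000 sorted CD4 and CD8 single-positive cells, and the stated gate for naïve cells applied to the spleen. The cells were taken 6 weeks after transplantation of their progenitors, and neither the labels nor the methods state the number of mice behind a library. With 1 library per tissue nothing here has a replicate check, and the intervals below are 95% intervals that cover the counting of clonotypes or reads alone. All TCRβ clonotypes together held 1782199 thymus reads and 2765086 spleen reads. No read was assigned to a TRGJ gene in either library, 108 thymus reads and 3 spleen reads fell to TRDJ genes, and the C gene was listed as TRBC2 in 1628 and 2228 TCRβ clonotypes and as none in the rest. The kit was one for TCRα and TCRβ chains, so these read counts do not test which T cells were sorted. TRBC1 was listed for no clonotype, TRBJ1 joins included, so the C gene call was not used.

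As background, the TCRβ locus is assembled in steps. A D segment is first joined to a J segment, and a V segment is then joined to that D-J unit. The ends are trimmed, and terminal transferase adds nucleotides without a template, so most joins fall out of frame by chance. A thymocyte whose first allele fails can rearrange the other allele. The failed allele stays in the genome of every descendant, and since it yields no protein, selection on the receptor does not see it. Such alleles are therefore read in this field as a record of rearrangement before selection.

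The leading members show what such a junction looks like. The 5 largest of each library are given here because they held most out-of-frame reads. Capitals mark the bases between the aligned ends of the V and J genes, and a sequence without capitals has V and J ends that touch or overlap.
TRBV5-TRBJ2-3: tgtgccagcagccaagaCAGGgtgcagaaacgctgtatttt
TRBV17-TRBJ1-1: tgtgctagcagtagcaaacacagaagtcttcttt
TRBV31-TRBJ2-7: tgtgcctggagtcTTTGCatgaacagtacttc
TRBV15-TRBJ1-5: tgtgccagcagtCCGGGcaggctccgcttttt
TRBV4-TRBJ2-1: tgctgagcagttcttc
TRBV17-TRBJ1-2: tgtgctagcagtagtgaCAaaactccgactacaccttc

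The largest member joined TRBV5 (GRCm38 chr6:41062332-41062803 in GENCODE) to TRBJ2-3 (chr6:41543223-41543271) and was the same sequence in both tissues. Its reads numbered 77447 in thymus and 155690 in spleen. These were 4.35% of all TCRβ reads in the thymus (Wilson interval 4.32% to 4.38%) and 5.63% in the spleen (5.60% to 5.66%). Among TCRβ clonotypes of any frame it ranked 5 in the thymus, below an in-frame TRBV13-3-TRBJ1-6 clonotype with 164823 reads and above an in-frame TRBV13-3-TRBJ1-2 clonotype with 65094. In the spleen it ranked 4, between an in-frame TRBV19-TRBJ1-3 clonotype with 167133 reads and the same TRBV13-3-TRBJ1-6 clonotype, which had 21682 there. Its CDR3 of 41 nt kept the whole V gene end, had lost 1 nt of the J gene and held 4 nt between them, to which no D gene was assigned.

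This single sequence made up 52.4% of the out-of-frame reads of the thymus (52.2% to 52.7%) and 80.3% of those of the spleen (80.1% to 80.5%). No other member came near it. The next, TRBV17-TRBJ1-1, had 11741 thymus reads and 2137 spleen reads, and ranked second among out-of-frame members in both. TRBV15-TRBJ1-5 had 4594 and 817 reads and TRBV17-TRBJ1-2 had 1807 and 1799. TRBV31-TRBJ2-7 belonged almost wholly to the thymus, with 7653 reads there and 4 in the spleen. Of the 10 largest members of each library 5 were common to both lists. In the other library 9 of the thymus list and 7 of the spleen list had at least 1 read. TRBV31-TRBJ2-7 counted among these with its 4 spleen reads. Of the 10 largest in-frame clonotypes of each library, all 10 were found in the other. Over all members the share found in the other library was 17.6% for the thymus and 14.6% for the spleen. No D gene was assigned to 7 of the 10 largest members in the thymus and 6 of the 10 in the spleen. Over all members 166 of 425 and 188 of 513 lacked one, against 375 of 1193 and 524 of 1706 in-frame clonotypes.

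The remaining places in the thymus list were taken by TRBV21-TRBJ1-2 with 2212 reads, TRBV5-TRBJ2-7 with 1933, TRBV1-TRBJ1-5 with 1681 and TRBV19-TRBJ2-7 with 1629. The TRBV5-TRBJ2-7 sequence had 0 reads in the spleen, which allows a share of up to 0.000108% of TCRβ reads, while TRBV1-TRBJ1-5 had 220 reads, TRBV21-TRBJ1-2 had 205 and TRBV19-TRBJ2-7 had 4. The spleen list went on with TRBV20-TRBJ1-2 at 492 reads, TRBV24-TRBJ2-5 at 393, TRBV21-TRBJ2-1 at 379, TRBV31-TRBJ1-1 at 356 and TRBV31-TRBJ2-7 at 348. Of these, TRBV24-TRBJ2-5 had 138 reads in the thymus and TRBV31-TRBJ2-7, a sequence other than the one above, had 368. Below its leading member the spleen thus held few large out-of-frame clonotypes. With 1000 or more reads there were 3 of 513 in the spleen (0.585%) and 15 of 425 in the thymus (3.53%). Of in-frame clonotypes 66 of 1706 (3.87%) and 84 of 1193 (7.04%) had as many, so their share was also lower in the spleen. Out-of-frame less in-frame, the differences were -3.28 points in the spleen (-4.38 to -1.90) and -3.51 points in the thymus (-5.62 to -0.94).

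The fifth member, listed as TRBV4-TRBJ2-1 with 3024 thymus reads and 718 spleen reads, was of another kind. Its CDR3 of 16 nt lay wholly within the germline sequence of TRBJ2-1, and the alignment score of its V gene was 52.7 and 50.6. Most members scored far higher, with medians of 970 over the thymus members and 981 over the spleen members. An in-frame clonotype of the same kind, listed as TRBV21, had 1594 and 412 reads. The members with a poorly aligned V gene were therefore described separately.

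In 58 of the 425 thymus members and 70 of the 513 spleen members the V gene scored under 100, against 30 of 1193 and 26 of 1706 in-frame clonotypes. No out-of-frame member scored between 65.9 and 120 in the thymus, or between 85 and 145 in the spleen. A stretch that recurred among them was found without giving a sequence beforehand, as the run of 16 nt that was most frequent in poorly aligned clonotypes among those in no TRB gene transcript of GENCODE. Extended while 90% of its carriers kept the same base, it read as follows.
recurrent stretch: aagcagtggtatcaacgcagagtacggg
Its letters are those of the template-switch oligo of SMART-type kits, which is joined to the start of the cDNA. It was in 50 thymus and 59 spleen members and in 27 and 22 in-frame clonotypes. These members together had 74 and 85 reads, and none had more than 5 in the thymus or 6 in the spleen. They were listed as TRBV16 in 35 cases in each tissue and joined to TRBJ2-3 in 25 and 42. The member with most reads in the spleen, with the stretch in capitals, ran straight from it into TRBJ2-3.
listed as TRBV16-TRBJ2-3, 6 reads: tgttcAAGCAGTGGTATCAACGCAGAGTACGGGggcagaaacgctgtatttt

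Some poorly aligned members held the germline side of a D segment. In 10 thymus and 11 spleen members, 8 of each with the stretch, the bases before the D segment were those that recurred before an untrimmed TRBD1 or TRBD2. A D segment that has joined a J but no V keeps this side. In the next sequence, listed as TRBV14-TRBJ2-1 with 1 read in the spleen, the flank of TRBD2 (germline chr6:41542163-41542176) is in capitals.
listed as TRBV14-TRBJ2-1, 1 read: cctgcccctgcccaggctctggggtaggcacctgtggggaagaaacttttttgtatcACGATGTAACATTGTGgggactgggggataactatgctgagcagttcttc

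A further 6 thymus and 10 spleen members, with 458 and 400 reads, held a second TRBJ gene inside the CDR3. In 5 and 8 of them TRBJ1-1 was followed by 89 nt and then TRBJ1-2, the distance between these genes in GRCm38 (chr6:41533864-41533911 and chr6:41534001-41534048), and in 1 and 2 TRBJ2-4 preceded TRBJ2-5. The frame had thus been read at the downstream J gene. Measured to the inner J gene, 4 of the 5 thymus junctions and 5 of the 8 spleen junctions that could be measured were in frame. In 3 and 5 of them this inner in-frame junction was also listed as a clonotype of its own. The largest, TRBV29-TRBJ1-2 with 304 thymus reads, held the junction of an in-frame TRBV29-TRBJ1-1 clonotype with 30274 reads. TRBJ1-1 is in capitals.
TRBV29-TRBJ1-1 read into TRBJ1-2: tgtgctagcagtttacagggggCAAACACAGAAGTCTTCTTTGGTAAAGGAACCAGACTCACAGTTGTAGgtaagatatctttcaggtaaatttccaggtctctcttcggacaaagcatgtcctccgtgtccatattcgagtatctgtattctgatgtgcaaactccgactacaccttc

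**Figure D1:**
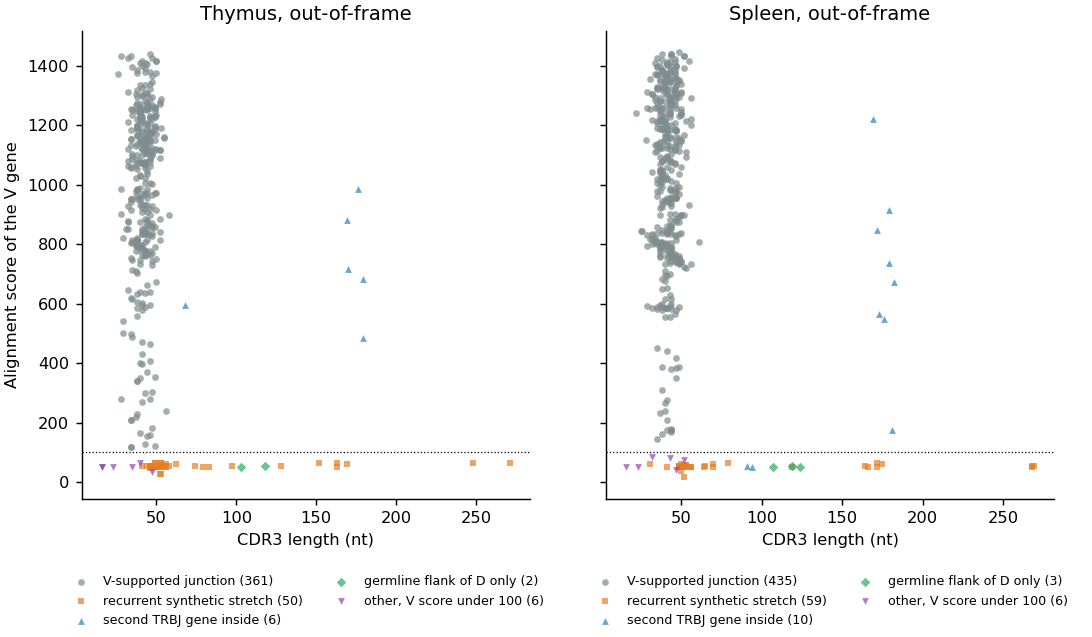
Alignment score of the V gene (unitless, vertical axis) against CDR3 length in nt (horizontal axis) for the 425 thymus and 513 spleen out-of-frame members, 1 point each, with symbols for the kinds described in the text and the number of each in brackets. The dotted line is a score of 100; the 361 and 435 V-supported junctions lie above it at 61 nt or less, and every member longer than that belongs to one of the other kinds.

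Members with a V score of at least 100 and neither a second J gene, the recurrent stretch nor a germline D flank are called V-supported junctions below. This set was defined after the data had been seen. It kept 361 of the 425 thymus members with 143322 reads, and 435 of the 513 spleen members with 192396 reads, so that 64 and 78 members fell outside it. Among in-frame clonotypes it kept 1163 of 1193 and 1680 of 1706. Each comparison below says whether it is over all members or over this set.

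Out-of-frame clonotypes were 25.9% of thymus TCRβ clonotypes (23.9% to 28.1%) and 22.9% of spleen ones (21.2% to 24.7%). Of the V-supported junctions of either frame, 23.7% of those in thymus (21.6% to 25.9%) and 20.6% of those in spleen (18.9% to 22.3%) were out of frame. They held a smaller part of the reads, 8.29% of thymus reads (8.25% to 8.33%) and 7.01% of spleen reads (6.98% to 7.04%). The members were spread over both shifted frames, with 217 thymus members 1 base and 208 members 2 bases past a multiple of 3, and 252 and 261 spleen members. The lowest base quality of the CDR3 had a median of 38 in members and in-frame clonotypes of both tissues.

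A typical out-of-frame clonotype had fewer reads than a typical in-frame one. In the thymus the out-of-frame members had from 1 to 77447 reads with a median of 40 (31 to 49), and the in-frame clonotypes from 1 to 475490 with a median of 110 (98 to 118). In the spleen the medians were 43 (34 to 51) and 158 (150 to 167). The in-frame median was 2.75 times the out-of-frame one for thymus and 3.67 times for spleen, and 2.24 and 3.04 times among V-supported junctions, whose out-of-frame medians were 51 and 53. The ranges overlapped almost wholly. Clonotypes of fewer than 10 reads were 29.2% of members and 12.9% of in-frame clonotypes in the thymus, a difference of 16.3 percentage points (11.7 to 21.1), and 26.9% and 7.56% in the spleen, a difference of 19.3 points (15.4 to 23.5). Among V-supported junctions these shares were 18.8% and 10.7% in the thymus, a smaller difference of 8.09 points (3.93 to 12.7). In the spleen they were 16.3% and 6.19%, a difference of 10.1 points (6.72 to 14.04). The V-supported set leaves out the 50 thymus and 59 spleen members with the recurrent stretch, which had at most 5 and 6 reads. In these bulk libraries fewer cells with a junction and less RNA per cell cannot be told apart.

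**Figure D2:**
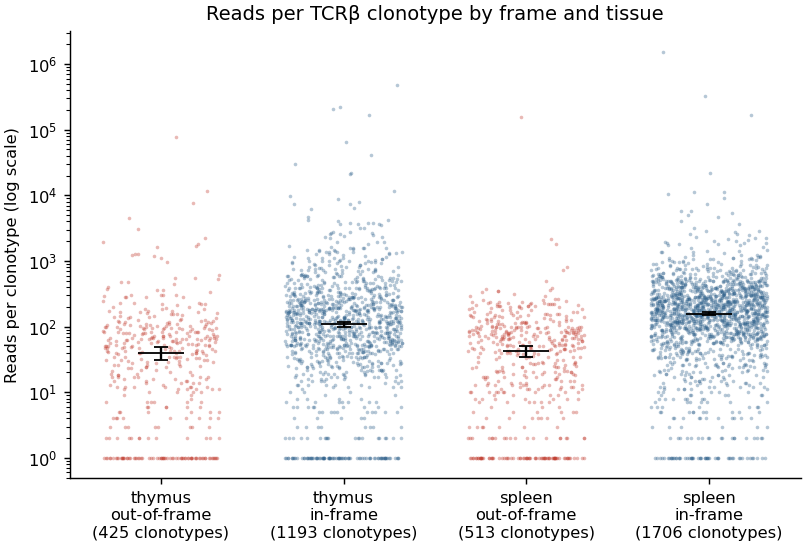
Reads per TCRβ clonotype (log scale) for out-of-frame (red) and in-frame (blue) clonotypes of each tissue, 1 point per clonotype, with the median and its exact 95% interval in black. The out-of-frame medians of 40 and 43 reads lie below the in-frame medians of 110 and 158, and a single out-of-frame point in each tissue, the TRBV5-TRBJ2-3 member, stands far above the rest at 77447 and 155690 reads.

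V gene use was compared next, for each V gene as its share of out-of-frame members less its share of in-frame clonotypes. A gene was called where the Newcombe interval of that difference left out 0. By this rule 7 of 26 V genes were called in the thymus (26.9%), of which 6 were used more out of frame (23.1%) and 1 less (3.85%). In the spleen 12 of 26 were called (46.2%), 8 used more (30.8%) and 4 less (15.4%). Among V-supported junctions 7 of 24 were called in each tissue (29.2%), 5 used more (20.8%) and 2 less (8.33%). TRBV4, TRBV17, TRBV21, TRBV24 and TRBV31 were used more among out-of-frame V-supported junctions in both tissues, and TRBV13-2 less. TRBV23 was called in both tissues over all members but in neither among V-supported junctions, where 2 thymus and 3 spleen members remained.

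Over all members the largest excess was that of TRBV24 (chr6:41218091-41218557), which GENCODE annotates as a V pseudogene. It was used by 20 of 425 members and 9 of 1193 in-frame clonotypes in the thymus, a difference of 3.95 points (2.18 to 6.43), and by 32 of 513 and 11 of 1706 in the spleen, a difference of 5.59 points (3.74 to 8.05). Put the other way, 69.0% of its clonotypes in frame or out of frame were out of frame in thymus (50.8% to 82.7%) and 74.4% in spleen (59.8% to 85.1%). The other genes annotated as pseudogenes were rarer. TRBV22 had 1 member in the thymus and 3 in the spleen, TRBV8 had 2 and 6, and TRBV28 had 0 and 1, and no TRBV8 or TRBV28 member was V-supported. Together the 4 pseudogenes were used by 5.54% of out-of-frame and 0.946% of in-frame V-supported junctions in the thymus, a difference of 4.59 points (2.53 to 7.49), and by 7.82% and 0.774% in the spleen, a difference of 7.04 points (4.81 to 9.97).

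TRBV21, which GENCODE lists as a V gene, resembled TRBV24 in this, with 11 out-of-frame and 7 in-frame V-supported junctions in thymus and 5 and 4 in spleen. Of the V-supported TRBV4 junctions 42.6% were out of frame in thymus (31.6% to 54.5%) and 41.2% in spleen (28.8% to 54.8%). For TRBV17 the shares were 34.4% (23.9% to 46.6%) and 35.4% (24.9% to 47.5%). TRBV31, the V gene downstream of the J genes in inverted orientation, had 38.6% (28.8% to 49.3%) and 30.6% (23.9% to 38.2%). TRBV13-2 stood at the other end. Of its 157 V-supported thymus junctions 21 were out of frame, 13.4% (8.92% to 19.6%), and of its 238 in the spleen 17 were, 7.14% (4.51% to 11.1%).

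By number of members TRBV16 led the list in both tissues, with 49 in the thymus and 65, as many as TRBV19, in the spleen. Of these only 13 and 30 were V-supported, since most carried the recurrent stretch. Among V-supported junctions TRBV16 was used by 3.60% of out-of-frame and 7.05% of in-frame clonotypes in the thymus, so that its difference was below 0 there by 3.45 points (interval -5.64 to -0.65), where over all members it had been 2.98 points above (-0.22 to 6.67). In the spleen it was -0.90 points among V-supported junctions (-3.35 to 2.12), where over all members it had been 4.05 points (1.09 to 7.45) and called. TRBV19, the leading gene without TRBV16, had 40 V-supported members in the thymus and 63 in the spleen, and its out-of-frame and in-frame shares differed by -1.56 points (-5.05 to 2.51) and 1.27 points (-2.18 to 5.199). TRBV20 with 25 and 28 and TRBV5 with 23 and 34 V-supported members likewise had differences whose intervals held 0 in both tissues.

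**Figure D3:**
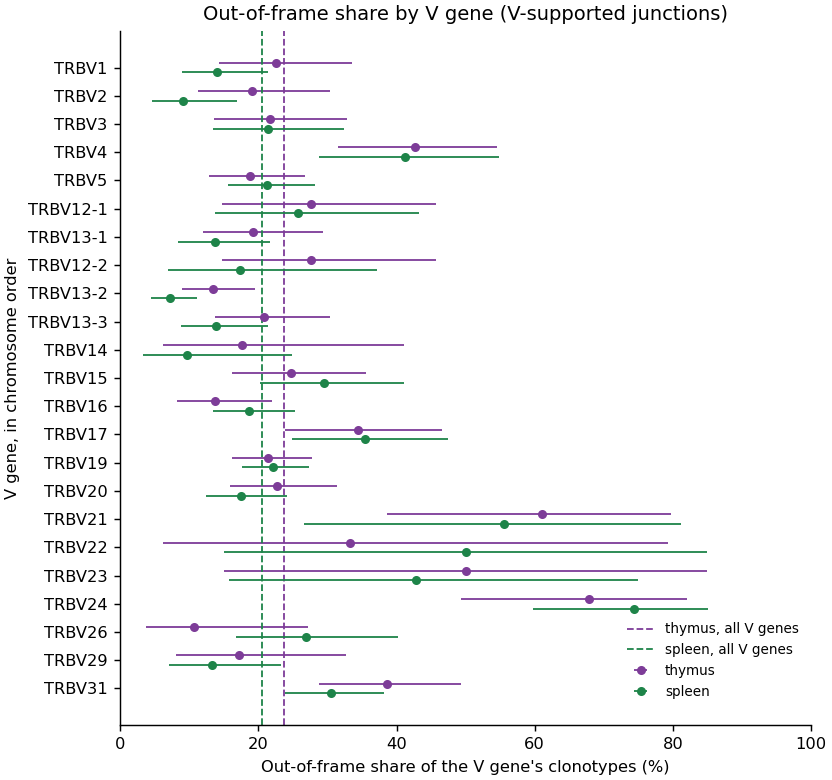
Out-of-frame share in percent of the V-supported junctions of each V gene with 3 or more of them in each tissue, both frames counted, with Wilson 95% intervals, for thymus (purple) and spleen (green), and dashed lines at 23.7% and 20.6% for all V genes of each. TRBV24 and TRBV21 lie to the right of the lines at 55.6% to 74.4%, and TRBV13-2 to the left at 13.4% and 7.14%.

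All 12 TRBJ genes in the tables were used by out-of-frame members of both tissues. Of these 12 genes 3 were called in the thymus (25%), 1 used more (8.33%) and 2 less (16.7%), and 4 in the spleen (33.3%), 1 used more (8.33%) and 3 less (25%). Among V-supported junctions 2 (16.7%) and 3 (25%) were called. TRBJ2-3 was used by 12.5% of members and 7.38% of in-frame clonotypes in the thymus, a difference of 5.09 points (1.85 to 8.83), and by 21.8% and 9.38% in the spleen, 12.5 points (8.79 to 16.4). The recurrent stretch was in 25 and 42 of these members. Among V-supported junctions the difference was 1.12 points in the thymus (-1.65 to 4.54) and 7.40 points in the spleen (3.93 to 11.4), with 70 of 435 against 146 of 1680 clonotypes there. TRBJ1-4 was used less by V-supported members in both tissues, with differences of -2.42 points (-3.81 to -0.48) and -2.44 points (-3.78 to -0.56). TRBJ2-5 was used less in the thymus, by -5.81 points (-9.36 to -1.69), and its difference in the spleen was -0.03 points (-3.26 to 3.72). TRBJ1-1 was used less in the spleen, by -5.15 points (-7.56 to -2.19), and its difference in the thymus was -1.19 points (-3.30 to 1.57). Whether a difference itself differs between the tissues was not tested.

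TRBJ1-2 was the most frequent J gene among thymus members, with 103 of 425, and second in the spleen with 96 of 513. Its differences from in-frame clonotypes were 3.03 points (-1.50 to 7.86) and 2.07 points (-1.57 to 6.05), with intervals that held 0. The other J genes, which were TRBJ1-3, TRBJ1-5, TRBJ1-6, TRBJ2-1, TRBJ2-2, TRBJ2-4 and TRBJ2-7, had V-supported differences between -3.73 and 3.86 points, with intervals that held 0, although over all members TRBJ2-7 was used less in the spleen, by -5.01 points (-8.05 to -1.56). The TRBJ2 cluster as a whole took 65.4% of members and 64.5% of in-frame clonotypes in the thymus, a difference of 0.95 points (-4.40 to 6.12), and 66.5% and 60.1% in the spleen, 6.39 points (1.61 to 10.98). Among V-supported junctions these became -0.43 points (-6.19 to 5.12) and 4.78 points (-0.38 to 9.74).

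**Figure D4:**
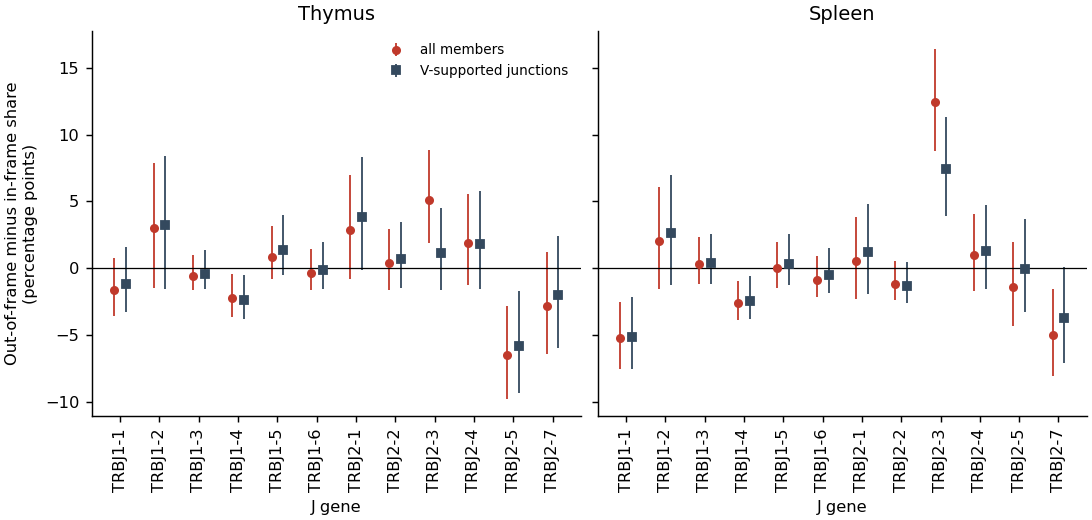
Share of each TRBJ gene among out-of-frame clonotypes less its share among in-frame clonotypes, in percentage points with Newcombe 95% intervals, over all members (red circles) and V-supported junctions (dark squares), in thymus and spleen. The TRBJ2-3 points of all members lie at 5.09 and 12.5, and those of V-supported junctions at 1.12 and 7.40.

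A D gene was assigned to 259 of 425 members and 818 of 1193 in-frame clonotypes in the thymus, a difference of -7.63 points (-13.0 to -2.36), and to 325 of 513 and 1182 of 1706 in the spleen, -5.93 points (-10.7 to -1.30). Among V-supported junctions the differences were -4.83 points (-10.5 to 0.63) and -2.47 points (-7.49 to 2.33). The order of the locus was visible in the D calls. TRBD2 lies downstream of the TRBJ1 cluster, so it can join TRBJ1 genes only by rarer routes. Of V-supported out-of-frame junctions with an unambiguous D gene, TRBD2 was called in 5 of 49 TRBJ1 joins and 132 of 164 TRBJ2 joins in the thymus, and in 6 of 71 and 138 of 202 in the spleen. Out-of-frame less in-frame, these shares differed by 1.16 points in TRBJ1 joins (-6.56 to 13.2) and -1.48 points in TRBJ2 joins (-8.83 to 4.85) of the thymus, and by 4.51 points (-0.69 to 13.4) and 0.63 points (-6.85 to 7.60) in those of the spleen.

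The distance from the aligned end of V to the start of J was compared as a measure of what lies between. Over all members its mean was 14.9 nt (SD 24.6) against 9.77 nt (SD 8.72) in frame in the thymus, a difference of 5.15 nt (2.77 to 7.54), and 15.4 nt (SD 27.6) against 8.73 nt (SD 9.19) in the spleen, 6.70 nt (4.28 to 9.13). Among V-supported junctions the difference was 0.011 nt (-0.66 to 0.68) and 0.45 nt (-0.13 to 1.03), with medians of 9 nt in frame and out of frame in the thymus and of 8 and 9 nt in the spleen. Of V-supported out-of-frame junctions 20 of 361 and 21 of 435 had V and J ends that touched or overlapped, as in TRBV17-TRBJ1-1 above. Of in-frame ones 64 of 1163 and 106 of 1680 did. The differences were 0.04 points (-2.38 to 3.13) and -1.48 points (-3.56 to 1.18).

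V-supported members had more inserted nucleotides between V and D. Where a D gene was assigned, the mean number was 1.93 (SD 2.11, 234 junctions) out of frame and 1.44 (SD 1.85, 810 junctions) in frame in the thymus, a difference of 0.50 (0.20 to 0.80), and 1.61 (SD 2.13, 293 junctions) and 1.31 (SD 1.64, 1173 junctions) in the spleen, a difference of 0.30 (0.044 to 0.57). Between D and J the differences were 0.18 (-0.055 to 0.41) and 0.21 (0.018 to 0.40). Over all members, whose inserts reached 136 nt, the differences were 4.76 nt (2.15 to 7.37) and 5.35 nt (2.84 to 7.85) between V and D, and 2.65 nt (0.87 to 4.43) and 3.27 nt (1.43 to 5.12) between D and J. No inserted nucleotide at either join was found in 12.4% of V-supported members and 19.3% of in-frame junctions in the thymus, a difference of -6.87 points (-11.5 to -1.39), and in 21.2% and 25.8% in the spleen, -4.67 points (-9.68 to 0.92). Over all members with a D gene these differences were -7.87 points (-12.2 to -2.77) and -6.56 points (-11.2 to -1.35).

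The makeup of the inserted bases was compared for the V-supported junctions. G and C together were 58.2% of 452 bases inserted between V and D in out-of-frame junctions of the thymus (53.6% to 62.6%) and 60.2% of 1163 in in-frame ones (57.3% to 63.0%), and 53.2% of 472 (48.7% to 57.6%) and 59.2% of 1532 (56.7% to 61.6%) in the spleen. On the strand read here C outnumbered G between V and D, at 39.4% against 18.8% in thymus members. Between D and J, G outnumbered C, at 39.9% against 12.5%. In-frame thymus junctions were alike, with 40.9% C against 19.3% G, and 39.6% G against 15.1% C. Spleen members had 37.3% C against 15.9% G between V and D. Between D and J they had 33.2% G against 13.2% C, with A the most frequent base at 38.2%.

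Trimming of the V gene was greater over all members, with an interval that held 0 once the poorly aligned ones were set aside. Over all members the V gene had lost 2.95 nt on average against 2.38 nt in frame in the thymus, a difference of 0.57 nt (0.29 to 0.84), and 2.85 against 2.21 nt in the spleen, 0.64 nt (0.39 to 0.89). Among V-supported junctions the differences were 0.16 nt in each tissue, with intervals of -0.095 to 0.42 and -0.064 to 0.38. J genes had lost 2.44 nt out of frame and 2.70 nt in frame among V-supported thymus junctions, a difference of -0.26 nt (-0.55 to 0.033), and 2.24 and 2.47 nt in the spleen, -0.23 nt (-0.49 to 0.026). An untrimmed V end was kept by 27.1% of V-supported members and 30.4% of in-frame junctions in the thymus, a difference of -3.29 points (-8.40 to 2.17), and by 29.4% and 34.2% in the spleen, -4.80 points (-9.49 to 0.17). Over all members these differences were -6.14 points (-10.8 to -1.19) and -8.56 points (-12.8 to -4.05).

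The same CDR3 end occurred with different V genes. The last 28 nt of the CDR3, which take in the J part and some bases before it, were shared with a clonotype of another V gene in 109 of 361 V-supported thymus members (30.2%) and 336 of 1163 in-frame junctions (28.9%), a difference of 1.303 points (-3.94 to 6.84), and in 133 of 435 (30.6%) and 23.3% of 1680 in-frame junctions in the spleen, 7.24 points (2.60 to 12.1). For 103 thymus members and 120 spleen members such an end was found on an in-frame junction of another V gene, so that an end carried by silent members also occurred in clonotypes that can encode a chain. The ends that occurred with the most V genes, chosen after their values were seen, are shown with the bases before the aligned J gene in capitals. In the TRBJ2-3 end these 8 bases equal the start of germline TRBD1. Whether clonotypes with the same end stem from 1 D-J join or from separate joins was not tested.
thymus, TRBJ2-1: CAGGGAGaagtatgctgagcagttcttc
spleen, TRBJ1-1: AGGGGCAgcaaacacagaagtcttcttt
spleen, TRBJ2-3: GGGACAGGgtgcagaaacgctgtatttt
The TRBJ2-1 end occurred with 14 V genes in the thymus, in 9 out-of-frame and 11 in-frame clonotypes, of which a TRBV13-1 member with 1286 reads and an in-frame TRBV13-3 clonotype with 4190 were the largest. In the spleen it occurred with 6 V genes in 5 and 4 clonotypes. The TRBJ1-1 end occurred with 15 V genes in the spleen, in 13 out-of-frame and 66 in-frame clonotypes, and with 10 V genes in the thymus, in 1 and 19. The TRBJ2-3 end was mostly out of frame in the spleen, in 20 against 15 clonotypes of 12 V genes, and was in 1 and 2 thymus clonotypes. The intervals of J gene use above counted clonotypes with the same end as independent.

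Members were shared between tissues less than in-frame clonotypes in the thymus. The same CDR3 nucleotide sequence was in both libraries for 75 members, which were 17.6% of the thymus members and 14.6% of those of the spleen, while 311 in-frame clonotypes, 26.1% and 18.2%, were shared. The differences were -8.42 points in the thymus (-12.6 to -3.83) and -3.61 points in the spleen (-6.99 to 0.15), and -10.4 points (-14.6 to -5.60) and -4.98 points (-8.39 to -1.09) among V-supported junctions, of which 56 were shared. Another 15 of the 75 carried the recurrent stretch. A sequence counted as shared from 1 read in each library, and whether a few reads mean cells of that tissue was not tested. Detection in both libraries also depends on reads, and the median of members was below that of in-frame clonotypes. With at least 10 reads the differences over all clonotypes were -6.13 points (-11.0 to -0.72) in the thymus and -4.10 points (-7.74 to 0.11) in the spleen. The shared members held 83.3% of the out-of-frame reads of the thymus and 86.0% of those of the spleen, but 64.8% and 28.9% when the TRBV5-TRBJ2-3 member was set aside. Over the 75, thymus and spleen reads had a Spearman correlation of 0.63, given as a description, since a low-read group with the stretch and the leading member lie at its ends.

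Shared V-supported members had more reads than unshared ones, with medians of 148 against 43 in the thymus and 80 against 52 in the spleen. They more often lacked a D gene, in 26 of 56 against 101 of 305 unshared ones in the thymus, a difference of 13.3 points (-0.24 to 27.1), and against 116 of 379 in the spleen, 15.8 points (2.51 to 29.4). In-frame junctions showed the same direction in both. Their shared and unshared medians were 204 against 100 reads in the thymus and 276.5 against 148 in the spleen. Their differences in lacking a D gene were 8.80 points (2.71 to 15.1) and 7.90 points (2.105 to 13.95).

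**Figure D5:**
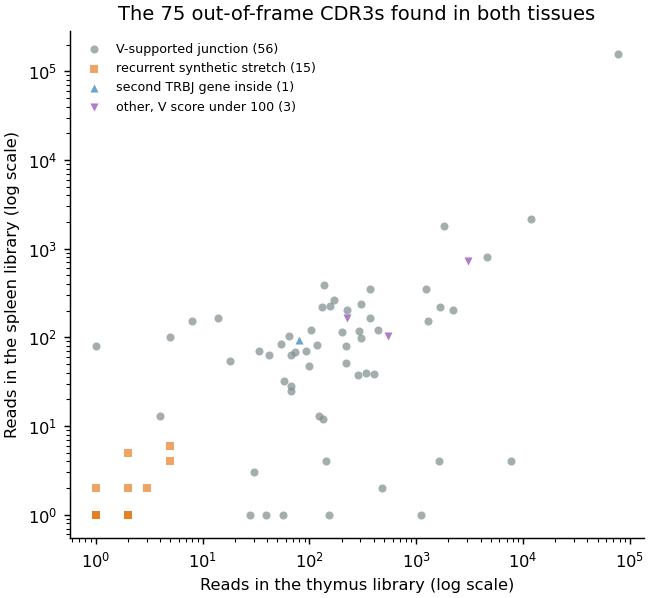
Reads in the thymus library against reads in the spleen library (both log scale) for the 75 out-of-frame CDR3 sequences found in both, 1 point each, with symbols for the kinds described in the text. The TRBV5-TRBJ2-3 member is the point at the upper right with 77447 and 155690 reads, and the 15 members with the recurrent stretch lie at 6 reads or fewer in both libraries.

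Among the deposited clonotypes few members looked like a copy of a larger one. Whether near copies had been merged during assembly is not stated in the sources used here. Within 1 substitution, insertion or deletion of a TCRβ clonotype with at least 20 times their reads lay 7 thymus members and 10 spleen members, with 56 and 70 reads in all, against 8 and 15 in-frame clonotypes, which are differences of 0.98 points (-0.089 to 2.72) and 1.07 points (0.018 to 2.71) over all members, and of 1.25 points (0.054 to 3.29) and 1.41 points (0.21 to 3.32) among V-supported junctions. The larger neighbour was in frame for 3 and 6 of them, and none lay that close to the TRBV5-TRBJ2-3 member.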

How the data were processed

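The 2 libraries were made with a SMARTer mouse TCR kit, and per the paper's methods the reads were converted with bcl2fastq and assembled into clonotypes with MiXCR; the MiXCR gene library and filters are not given in the sources used here. The authors deposited the read count of each clonotype without normalization, the same count as a fraction of the library's reads (not used), and the lowest base quality score of the CDR3. No molecular identifier is stated, so reads are not independent molecules. Chains were separated by the first-listed J gene. Trimming and distances were read from the deposited reference points, a negative end value being a loss.

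Shares carry Wilson 95% intervals, differences of shares Newcombe intervals, medians exact binomial intervals, and means normal intervals over clonotypes. These treat clonotypes as independent. The Newcombe and median intervals and the search for near copies were tested on simulated data. The values simulated for the intervals were independent, so that test does not cover clonotypes that share an end. With 1 library per tissue no test between tissues was run. Named V genes were the 6 most used among members of each tissue, those called in the same direction in both, and pseudogenes. Among members the 5 largest per tissue are shown and the 10 largest named. J and D genes are all covered. Members and lists were chosen with earlier results of these data known. The V score limit of 100, the recurrent stretch of at least 16 nt, the second J gene and the 28-nt end were chosen after seeing the data. Sequences of genes and positions came from GENCODE M21 (GRCm38). Alternatives were at least 2 or 10 reads, copies within 1 edit of a clonotype with 20 times the reads left out, sequences of 1 library only, tied V genes left out, stop-codon clonotypes added, weighting by reads, and V-supported junctions only. Python with numpy, pandas, scipy and matplotlib was used.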

Additional observations from a re-analysis of the deposited data

How the results depend on the processing

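No paired analysis was possible because each tissue has 1 library and the results come from no test across samples; for the same reason leaving out a library would leave a tissue with none. Of 146 values under an alternative, 94 kept their direction and the side of 0 of their interval or stayed within the interval of the reported value. Leaving out near copies and tied V genes, or adding the stop-codon clonotypes, is among these throughout. The cause of the changes below was not tested unless the construction shows it.

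With at least 2 reads the out-of-frame share of spleen clonotypes was 20.7%, the ratio of median reads out of frame to in frame was 0.341 in the spleen, the difference in V-to-J distance was 1.84 nt in the thymus and 2.96 nt in the spleen, that in V trimming 0.28 and 0.37 nt, that in J trimming -0.33 nt in the thymus (interval now below 0), that in D assignment -4.09 points in the spleen (interval now holding 0), and that in TRBJ2 cluster use -2.68 points in the thymus and 4.25 in the spleen (both intervals holding 0). With at least 10 reads the out-of-frame share was 22.2% and 19.1%, the ratio of medians 0.399 in the spleen, the differences in V-to-J distance 1.23 nt (interval holding 0) and 2.74 nt, in V trimming 0.21 and 0.24 nt (holding 0), in J trimming -0.40 and -0.34 nt (both below 0), in D assignment -5.98 and -2.40 points, in TRBJ2 use -4.34 and 2.50 points (all holding 0), and in junctions without inserted nucleotides -4.90 points in the thymus (holding 0).

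With sequences of 1 library only, which removes the TRBV5-TRBJ2-3 member, the largest member held 7.82% and 1.81% of out-of-frame reads, out-of-frame clonotypes held 13.9% and 8.67% of TCRβ reads, D assignment differed by -4.14 points in the spleen and TRBJ2 use by -2.54 points in the thymus (both holding 0). Weighted by reads, D assignment differed by -25.0 and -61.8 points, junctions without inserted nucleotides by -28.8 and -62.8 points, and TRBJ2 use by 6.65 points in the thymus.

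Among V-supported junctions only, chosen after seeing the data, the out-of-frame share was 23.4% and 20.4% of clonotypes and 8.07% and 6.96% of reads, the largest member held 54.0% and 80.9% of out-of-frame reads, and 7 V genes were called in the spleen. The intervals came to hold 0 for V-to-J distance (0.011 and 0.45 nt), V trimming (0.16 nt in both), D assignment (-4.83 and -2.47 points), TRBJ2 use in the spleen (4.78 points, and -0.43 in the thymus) and no inserted nucleotides in the spleen (-4.67 points), while that for sharing between tissues in the spleen came to leave out 0 (-4.98 points). Depth limits what a low-read clonotype can show: 73 thymus and 78 spleen members rest on 1 read.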
